A study of Mus musculus with 6 samples.

Results

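The genes described here are 10 genes of glycolysis and of the response to low oxygen, chosen by symbol from the 31053 genes of a single-cell RNA count matrix of immune cells from glioma-bearing mouse brain. They are Slc2a1, the 6 enzyme genes Aldoa, Tpi1, Gapdh, Pgk1, Pkm and Ldha, the hypoxia factor gene Hif1a, and Bnip3 and Vegfa. CD45+ cells were sorted from the tumor-bearing right hemisphere of female SCID mice (labelled 6-8 weeks old, and implanted at 8 weeks by the protocol), after intracranial injection of 50000 cells of the human glioma line U87. In 3 mice the U87 cells expressed IL-33 and the brains were taken at 3 weeks, and in 3 mice they carried the empty vector pcDNA 3.1 and the brains were taken at 6 weeks, so that IL-33 and time after implantation cannot be told apart. SCID mice lack T and B cells, and the xenograft is a single human line in a mouse host. The matrix joins 6 libraries whose barcode suffixes are not tied to a mouse in the labels and were not matched to mice by their numbers of cells, so no comparison of IL-33 with pcDNA was made, and the members are compared between groups of cells in 1 pooled sample, with no test. The 6 suffixes give ranges and are not replicates of a group.

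Glycolysis turns glucose into pyruvate in the cytosol and yields ATP without oxygen, and lactate dehydrogenase then turns pyruvate into lactate. Many of its genes are targets of the factor HIF-1, whose alpha subunit, the product of Hif1a, is broken down when oxygen is plentiful, so that the mRNA of Hif1a reports its synthesis and not the activity of the factor. In the brain, microglia, the resident macrophages, are known to draw more on glycolysis when activated. Slc2a1 encodes the glucose transporter GLUT1. Aldoa encodes the aldolase that splits fructose bisphosphate, Tpi1 interconverts the resulting trioses, Gapdh oxidises glyceraldehyde phosphate, Pgk1 makes ATP, Pkm makes pyruvate and Ldha makes lactate. Bnip3 encodes a mitochondrial protein that marks mitochondria for removal, and Vegfa encodes the vessel growth factor VEGF-A.

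The matrix held 105560763 unique molecular identifiers (UMIs, each counting 1 captured RNA molecule) in 40411 barcodes, between 9745192 and 24393841 UMIs per suffix, with a median of 1536 to 3503 UMIs per barcode. Of these barcodes, 38751 were kept (over 200 and at most 2500 genes, under 5% mitochondrial UMIs). The libraries share barcodes: 3890 barcode sequences occur in at least 2 libraries and 490 in all 6, which takes in 14722 barcodes, or 36.4%. Any pair of libraries shares 509 to 3428 sequences, which is 17.7% to 49.6% of the smaller library, and the Pearson correlation of log UMIs between the shared barcodes of a pair runs from 0.216 to 0.914, as a description over barcodes. Shared barcodes are shallower, with a median of 929 UMIs against 3137. The cause of the sharing was not tested. Levels were therefore computed over all kept cells and again over the 24262 kept barcodes found in 1 library only, called unshared. A value with no set named is over all kept cells.

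Cells were grouped by gates of 6 marker genes, none of them a member. The microglia gate took in 37127 cells (23203 unshared), with Tmem119 at 2452 CPM (UMIs of the gene per 1000000 UMIs) and P2ry12 at 3719 CPM. A cell entered it with at least 2 of its 6 markers and in no other gate. The study reported bone marrow-derived macrophages with low levels of Selplg, P2ry12 and Tmem119, and the gate does not set such cells apart. Below, microglia means the cells of this gate. In these cells the markers of other brain cells were at or near 0: Mog and Hba-a2 had no UMI, Aqp4 and Cldn5 had 1 each and Cd3e had 11. Smaller gates held 254 choroid plexus-like cells (Ttr, Enpp2 and 4 other markers), 230 monocyte-like cells (Ly6c2, Ccr2), 198 NK-like cells (Gzma, Ncr1), 174 cycling microglia (Top2a, Mki67), 57 granulocyte-like cells (S100a8, Ngp) and 43 dendritic-like cells (Cd209a, Flt3). A further 223 cells with at most 1 microglial marker, Apoe at 1% or more of UMIs and a UMI of Spp1 are called the Spp1 gate. Only 1 cell entered the border-associated macrophage gate and no level is given for it. Levels are summed UMIs in CPM with exact Poisson 95% intervals, and ratios have exact conditional 95% intervals. Both cover counting error only, not differences between mice. The libraries were read at the 3′ end and no level was divided by gene length, so a gene is compared between cells and not with another gene.

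In the microglia gate, each of the 6 enzyme genes, Slc2a1, Bnip3 and Hif1a was measured in every suffix, and Vegfa was close to absent. The enzymes together reached 996 CPM (990 to 1003), with a lowest suffix at 896, a median of 977 and a highest at 1196. Ldha was at 158 CPM over the gate, from 126 to 200.5 over the suffixes. Hif1a was at 69.6 CPM and varied little, from 65.5 to 73.8 CPM, and Slc2a1 at 33.8 CPM ran from 32.2 to 36.5 CPM. Bnip3 stood at 26.5 CPM, with suffixes from 23.6 to 29.3 CPM. Vegfa had 14 UMIs in the gate, or 0.153 CPM (0.084 to 0.257), which is too few for any statement on single suffixes. A UMI of Pkm was found in 39.0% of microglia, of Gapdh in 38.8%, of Ldha in 28.6% and of Hif1a in 14.8%, shares that depth sets in part.

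The sequences before the transcription start of 3 members known as HIF-1 targets, the enzyme genes Ldha and Pgk1 and Bnip3, are shown as examples of the HIF-1 core motif, searched as ACGTG on either strand. Each runs 5′ to 3′ on the strand of the gene over the 250 bases before a RefSeq start (GRCm38.p6), and capitals mark ACGTG or its reverse complement CACGT. The Ldha window is chr7:46845554-46845803, plus strand, the Pgk1 window is chrX:106186850-106187099, plus strand, and the Bnip3 window is chr7:138909507-138909756, minus strand.
Ldha: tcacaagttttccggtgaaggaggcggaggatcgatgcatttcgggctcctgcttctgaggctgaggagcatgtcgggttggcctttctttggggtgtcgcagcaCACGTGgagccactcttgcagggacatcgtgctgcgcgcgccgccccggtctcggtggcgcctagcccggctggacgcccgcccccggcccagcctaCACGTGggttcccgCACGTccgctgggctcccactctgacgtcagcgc
Pgk1: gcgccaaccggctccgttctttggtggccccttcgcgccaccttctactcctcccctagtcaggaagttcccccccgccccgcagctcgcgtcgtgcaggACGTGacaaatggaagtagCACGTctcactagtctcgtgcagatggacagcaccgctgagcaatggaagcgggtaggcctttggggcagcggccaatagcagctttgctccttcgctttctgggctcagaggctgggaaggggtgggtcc
Bnip3: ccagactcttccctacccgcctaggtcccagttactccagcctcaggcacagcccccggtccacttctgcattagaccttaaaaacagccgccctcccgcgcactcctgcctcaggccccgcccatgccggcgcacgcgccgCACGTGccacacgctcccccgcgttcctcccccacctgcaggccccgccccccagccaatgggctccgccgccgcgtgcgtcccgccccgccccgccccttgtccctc
In the Ldha window 5 matches begin 145, 144, 48, 47 and 34 bases before the start, where the palindrome CACGTG counts once on each strand and gives the pairs of neighbouring positions. The Pgk1 window has matches 150 and 131 bases before the start, and the Bnip3 window has 1 palindrome, counted as 2 matches. A further 5 members also held the motif and are not shown, among them Hif1a with 3 matches. Of the 15 windows listed for the 10 members, 9 held the motif, against 16.6% of all 32851 windows. Among these 9 are 2 overlapping windows of Aldoa with the same match. Aldoa, Ldha, Pkm and Vegfa each also had a window without the motif. In Aldoa, Pkm and Vegfa the window without it is the more upstream one. For Vegfa the window with the motif, chr17:46025164-46025413, lies inside the gene, which spans 46016993 to 46032369 on the minus strand. At least 1 window held it in 8 of the 10 members (not in Gapdh or Tpi1), against 18.5% of 27025 genes. With GCGTG, another form of the core, counted too, 11 of the 15 windows held a match, against 38.6% of all windows. So did 9 of the 10 members (Gapdh then with 2, Tpi1 with none), for which no share over genes was counted. A match is a run of letters and not a shown binding site, and the windows without one say nothing about the factor.

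Monocyte-like cells had higher levels of the enzyme genes than microglia. The summed enzymes were at 3300.4 CPM (3193 to 3411) against 996 CPM, a ratio of 3.31 (3.20 to 3.43), and at 3286 against 961 CPM in unshared cells. Against microglia of the same suffix, the ratio ran from 2.57 to 3.47 over the 3 suffixes with at least 20 monocyte-like cells. Pkm, the pyruvate kinase gene, was at 1283 CPM against 240.0 CPM, 5.35 times as high (5.06 to 5.65; in unshared cells 5.66), and in the 3 suffixes with at least 20 monocyte-like cells it was at 1106, 1218 and 1406 CPM, all above the highest microglial suffix at 283 CPM. Ldha was at 602 CPM against 158 CPM, with suffixes at 516, 527 and 710 CPM, again with no overlap. Hif1a was at 143 CPM against 69.6 CPM, but its suffixes lay at 65.8, 159 and 170 CPM, so the lowest of them fell within the microglial range. Slc2a1 was 1.62 times as high (1.23 to 2.10). Bnip3 ran the other way, at 13 CPM on 14 UMIs against 26.5 CPM, a ratio of 0.492 (0.269 to 0.827). Vegfa had 15 UMIs in 230 monocyte-like cells which gives 14.0 CPM (7.81 to 23.0) and a ratio of 91.0 (40.9 to 203). Within the 3 suffixes with at least 20 monocyte-like cells the ratio ran from 32.2 to 84.6, below the pooled one. These suffix ratios rest on too few UMIs to rank the suffixes. Without suffix 6 the pooled ratio was 137 (52.7 to 359), and in unshared cells it was 80.1 (34.9 to 185).

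For a count over the members, a gene was called at 1.5-fold or more, among the 8986 genes at 5 CPM or more in all kept cells. Vegfa, at 0.419 CPM, is below that level and the other 9 members are above it. In monocyte-like cells 8 of the 9 were higher than in microglia, against 22.1% of all genes tested, and 1 (Bnip3) was lower, against 37.3%. The counts were the same in unshared cells (background 22.6% higher and 36.6% lower). The median ratio of the 9 was 2.06, where that of all genes tested was 0.859. Monocyte-like cells were deeper, at a median of 4748 UMIs against 2430, and only 0.921% of their UMIs came from 6 microglial transcripts (Cst3, C1qa, C1qb, C1qc, P2ry12 and Tmem119), against 9.13% in microglia. They came mostly from the 2 suffixes with 86 and 90 of the 230 cells.

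Choroid plexus-like cells had the highest summed enzyme level of all gates, 3618 CPM (3471 to 3769), followed by the monocyte gate, whose interval does not reach it, although the suffixes of the choroid gate spread from 2300.5 to 4410 CPM and cover those of the monocyte gate. Their leading enzymes differed. Aldoa was at 1047 CPM, 5.00 times the microglial level (4.62 to 5.41; in unshared cells 5.48), and in monocyte-like cells at 407 CPM. Pgk1 was at 347 CPM, 6.31 times as high (5.49 to 7.23), and 6.81 times in unshared cells. Tpi1 was 3.73 times as high (3.19 to 4.34). Bnip3 was at 66.3 CPM, 2.50 times as high (1.80 to 3.40), with suffixes from 11.4 to 89.6 CPM that overlapped the microglial ones. Hif1a was lower, at 34.7 CPM on 22 UMIs, a ratio of 0.499 (0.312 to 0.756). In this gate 7 of the 9 members were higher, against 14.5% of genes, and 1 was lower, against 54.3% (14.8% and 53.7% in unshared cells, with the same member counts). Ttr alone was at 267689 CPM in these cells, which lowers the CPM of every other gene there. These cells are epithelial and not expected behind a CD45 gate, and 3.23% of their UMIs came from the 6 microglial transcripts. Without the cells in which that share was over 3%, the enzyme ratio was 4.87.

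NK-like cells were closer to microglia. Ldha was at 365 CPM, 2.31 times as high (2.02 to 2.63), with the 2 suffixes of at least 20 cells at 364 and 403 CPM, above all microglial suffixes. Pgk1 was 1.86 times as high (1.43 to 2.38). Gapdh, at a ratio of 1.24 (1.07 to 1.42), was above the microglia of the same suffix in 1 suffix and below it in the other. Slc2a1 was at 19.2 CPM on 12 UMIs, a ratio of 0.569 (0.293 to 0.995), at 0.597 (0.308 to 1.04) in unshared cells and at 0.768 (0.383 to 1.38) without suffix 4. Of the 9 members, 2 were higher (background 22.8%) and 2 were lower (23.9%), and in unshared cells 2 and 1 (23.9% and 23.3%). The 6 microglial transcripts made up 4.03% of the UMIs of the NK gate. Without the cells over 3% of such UMIs, 5 of the 9 members were at least 1.5-fold higher and the enzyme ratio was 1.84 in place of 1.5. Without suffix 6, which held 96 of the 198 cells, 4 of the 9 members were higher. The share of all genes was not counted under these settings, so neither count is read as a result about the members.

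Cycling microglia had 1602 CPM of the summed enzymes, 1.61 times the level of the non-cycling microglia (1.51 to 1.71) and 1.62 times in unshared cells. The enzymes did not move together. Pgk1 was 2.38 times as high (1.91 to 2.94), Gapdh 2.11 times (1.90 to 2.33) and Pkm 1.88 times (1.67 to 2.10). Aldoa was at 108 CPM against 209 CPM, a ratio of 0.515 (0.405 to 0.647) that stayed at 0.490 in unshared cells. Bnip3 was at 16.0 CPM on 11 UMIs against 26.5 CPM. Counted over the 9 members, 5 were higher (24.2% of all genes) and 2 lower (15.9%), or 4 and 2 in unshared cells (25.4% and 16.1%).

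**Figure D1:**
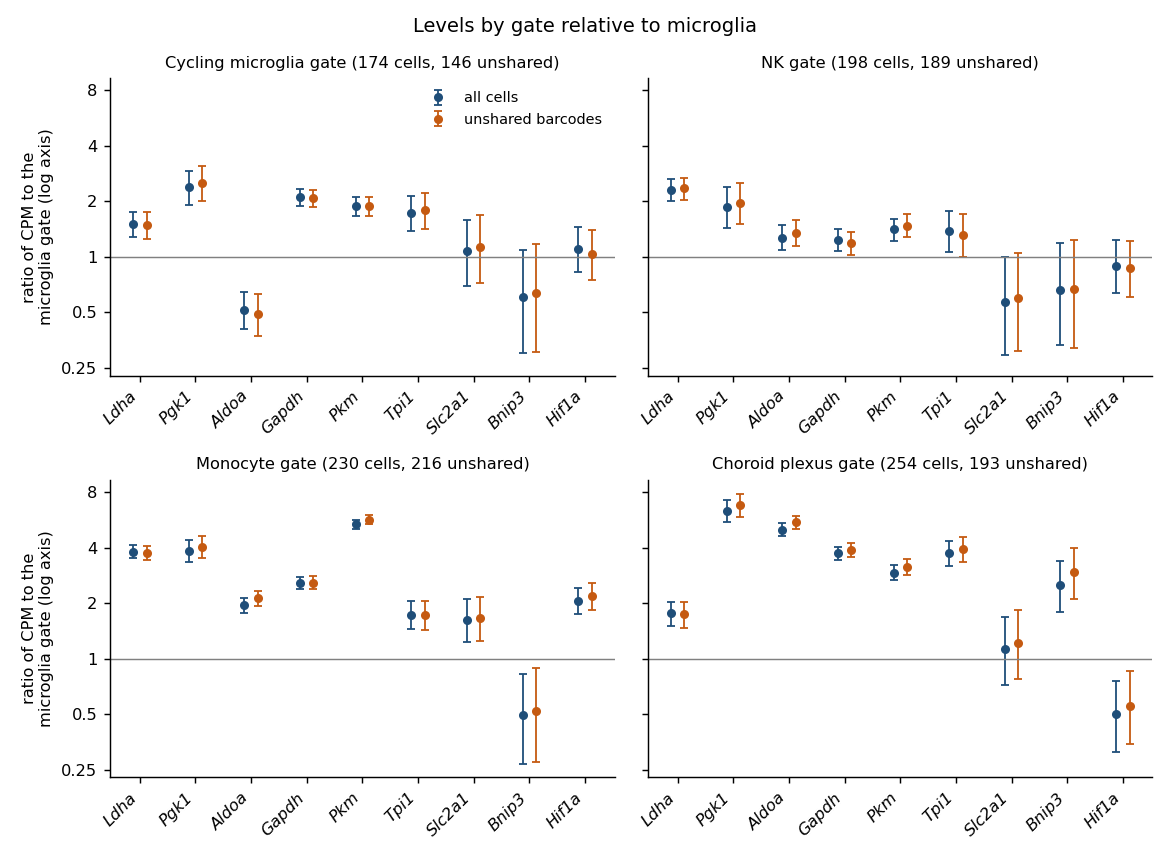
Ratio of CPM to the microglia gate on a log axis for the 9 members above 5 CPM, in 4 gates; points are pooled ratios over all or over unshared cells and bars are exact 95% intervals of counting error. Pkm is at 5.35 in the monocyte gate and Pgk1 at 6.31 in the choroid plexus gate, while Bnip3 in monocyte-like cells, Hif1a in choroid plexus-like cells and Aldoa in cycling microglia lie near 0.5.

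The 3 remaining gates were smaller or shallower. Granulocyte-like cells had 2210.1 CPM of the summed enzymes, 2.22 times the microglial level (2.00 to 2.45) on 378 UMIs, with Pkm at 766 CPM. S100a8 took 69127 CPM there and the 6 microglial transcripts 5.18% of UMIs, and without cells over 3% of such UMIs the ratio was 3.87. Dendritic-like cells had 2481 CPM (2281 to 2694), with Ldha at 734 CPM, 4.64 times as high (3.96 to 5.40). Tpi1 was at 34.9 CPM on 8 UMIs there, on the low side of the microglial 73.2 CPM. Only 1 suffix held at least 20 dendritic-like cells, and none held 20 granulocyte-like cells. The Spp1 gate had 2298 CPM (2102 to 2508) and Hif1a at 178 CPM on 39 UMIs (126 to 243), but its cells had a median of only 806 UMIs, and 182 of the 223 were shared barcodes. In its 41 unshared cells, none of whose suffixes reached 20 cells, the enzymes were at 2608 CPM and Hif1a at 324 CPM. In the 182 shared cells Hif1a was at 128 CPM. The 6 monocyte markers summed to 1457 CPM in the unshared and 85.5 CPM in the shared cells, so the 2 sets differ in make-up. The members counted as higher were 6 of 9 in granulocyte-like cells (13.1% of genes), 5 of 9 in dendritic-like cells (27.6%) and 7 of 9 in the Spp1 gate (19.5%), and in unshared cells 5, 5 and 9 (13.3%, 27.9% and 24.1%). Of the 9, only Tpi1 in dendritic-like cells was lower, in all and in unshared cells, against backgrounds of 47.1%, 38.4% and 33.0% (46.6%, 38.0% and 49.8% in unshared cells). Vegfa had no UMI in these 3 gates, which leaves upper limits of 16.1 to 21.6 CPM, above the level measured in monocyte-like cells.

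Within the microglia gate, cells were placed in 5 bins by the share of their UMIs that came from Apoe, the lipid carrier gene that rises in microglia of diseased brain. The lowest bin (under 0.1%) held 6893 cells and the top bin (3% and over) 7774. The enzyme sum rose from bin to bin, from 828 CPM (815 to 841) over 895, 958 and 1121 CPM to 1237 CPM (1219 to 1256), a ratio of the top to the lowest bin of 1.5 (1.46 to 1.53). In unshared cells the 5 levels were 828, 892, 951, 1105 and 1226 CPM, with a ratio of 1.48 (1.44 to 1.52). In the lowest bin the suffixes lay at 779 (lowest), 826 (median) and 968 CPM (highest), and in the top bin at 1168, 1239 and 1434 CPM. The bins did not overlap, and the top bin was higher in each of the 6 suffixes, by 1.42 to 1.60 times. Shared barcodes recur between suffixes, so over all cells the suffixes are not independent of each other. In unshared cells the top bin was higher in each of the 6 suffixes too, by 1.30 to 1.61 times.

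**Figure D2:**
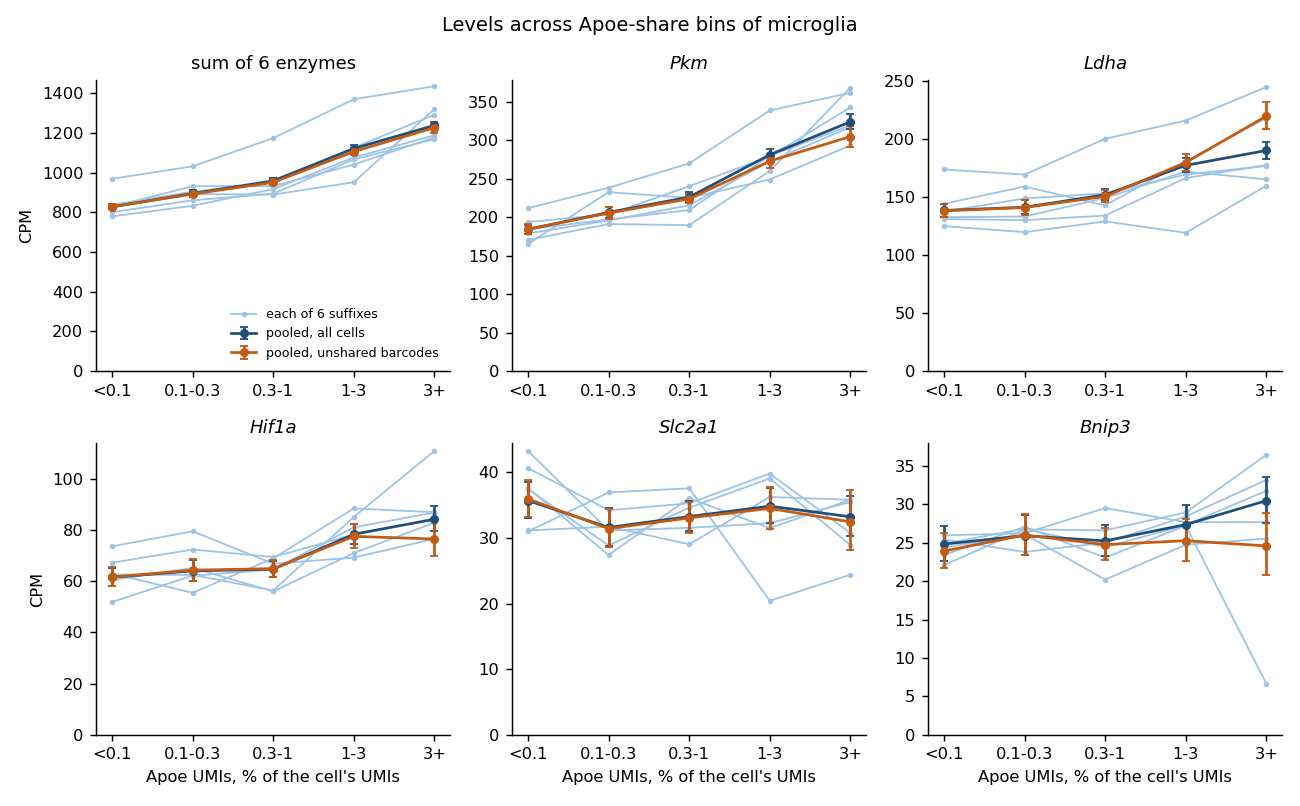
CPM of the summed enzymes and of 5 members (vertical axes from 0) against the Apoe share of the cell in percent of UMIs; thin lines are the 6 suffixes, thick lines the pooled cells with exact 95% intervals. The enzyme sum and Pkm are higher at the right in every suffix, Slc2a1 is level, and a suffix of Bnip3 drops to 6.65 CPM on 3 UMIs.

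Pkm changed most of the enzymes. It was at 184 CPM in the lowest bin, with suffixes at 165 (lowest), 181 (median) and 212 CPM (highest), and at 324 CPM in the top bin, with suffixes at 293, 331 and 368 CPM. The ratio was 1.76 (1.68 to 1.84) over all cells and 1.65 (1.56 to 1.75) over unshared cells. Ldha went from 138 CPM (suffixes 125, 135 and 174) to 190.1 CPM (160, 177 and 245), so its bins overlapped between suffixes although each suffix on its own was higher in the top bin. Its ratio was 1.37 (1.30 to 1.45) in all cells and 1.59 (1.49 to 1.70) in unshared cells. Gapdh was 1.45 times as high (1.38 to 1.51) and 1.55 times in unshared cells. Pgk1 was 1.44 times as high (1.31 to 1.58), and again 1.44 times (1.27 to 1.62) in unshared cells. Aldoa, at 1.51 (1.44 to 1.58) in all cells, was at 1.20 (1.13 to 1.28) in unshared cells, so that most of its difference lay in the shared barcodes. Tpi1 had the smallest ratio of the enzymes over all cells, 1.18 (1.09 to 1.28), and was higher in 5 of 6 suffixes.

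Hif1a was at 61.5 CPM in the lowest bin (suffixes 51.9, 62.8 and 73.6) and at 84.2 CPM in the top bin (76.6, 85.5 and 111), which gave 1.37 (1.26 to 1.49) with no overlap of the suffixes. In unshared cells it was at 1.24 (1.11 to 1.38), higher in 5 of 6 suffixes. Slc2a1, which carries glucose into the cell, did not follow the enzymes, at 35.7 and 33.2 CPM with a ratio of 0.931 (0.825 to 1.05), lower in 5 of 6 suffixes. Bnip3 was at 24.8 and 30.5 CPM, a ratio of 1.23 (1.07 to 1.40) that was 1.03 (0.850 to 1.24) in unshared cells. Vegfa had 1 UMI in the lowest bin and 4 in the top bin, and no difference was detectable at this depth.

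Of the 9 members tested, 2 (Pkm and Aldoa) were at least 1.5-fold higher in the top bin, against 7.11% of the 8986 genes, and none was lower, against 9.87%. In unshared cells 3 (Ldha, Gapdh and Pkm) were higher, against 6.62%, and none lower, against 11.7%. Aldoa was just past the line, and without suffix 2 or suffix 6 the count was 1. With Apoe left out of the denominator, which raises the ratio of every gene, it was 4. The share of all genes was not counted under these settings. The median ratio of the members was 1.37 in all and 1.32 in unshared cells, beside 0.939 and 0.882 for all genes tested. Several other measures moved with the bins, and their part in the result was not tested. The median depth fell from 2700 to 1194 UMIs in all cells, where 78.6% of the top bin were shared barcodes, and rose from 2753 to 3707 UMIs in unshared cells. Median mitochondrial shares went from 0.992% to 1.51%, and the 6 immediate early genes (Fos, Jun, Junb, Egr1, Dusp1 and Atf3), which also respond to tissue dissociation, went from 48603 to 29462 CPM in sum. The 6 microglial markers fell from 15949 to 8131 CPM, the 6 monocyte markers went from 27.0 to 64.4 CPM and the 6 border-associated macrophage markers from 1.62 to 15.1 CPM. The share of recruited macrophages in each bin was not tested. Within strata of depth the enzyme ratio was 1.52 at 500 to under 2000 UMIs, 1.59 at 2000 to under 3500 UMIs and 1.31 (1.27 to 1.36) at 3500 UMIs and over, where none of the 9 members reached 1.5-fold. In unshared cells the 3 ratios were 1.58, 1.32 and 1.31, and at 3500 UMIs and over Ldha alone reached 1.5-fold, at 1.5 (1.36 to 1.65). The share of all genes past 1.5-fold was not counted within the strata.

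**Figure D3:**
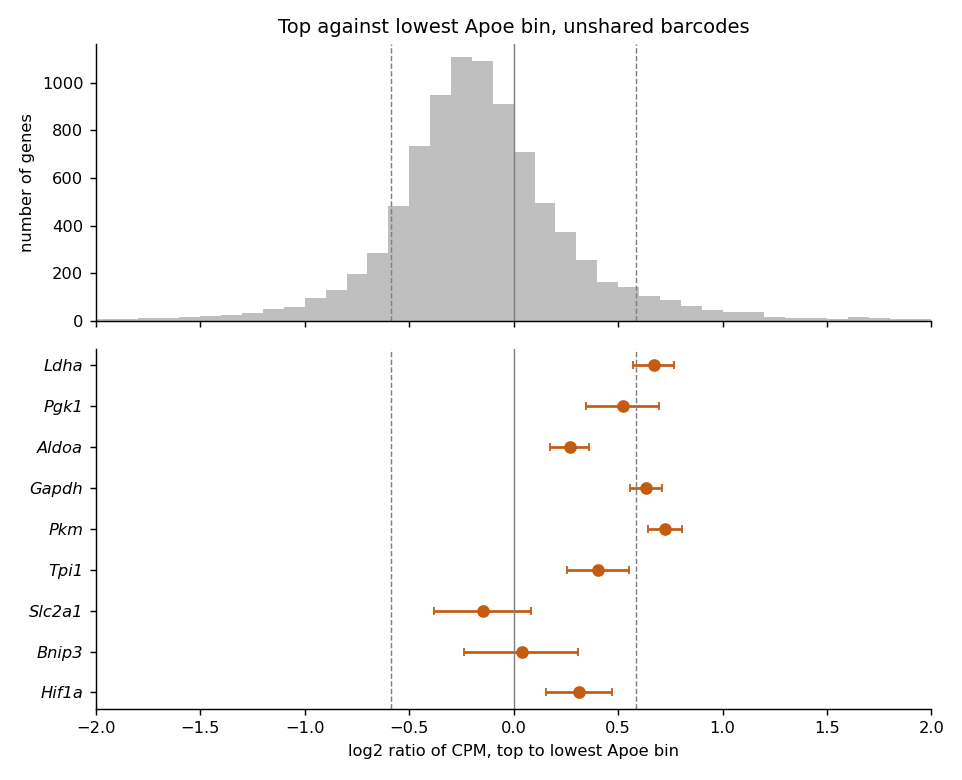
Log2 ratio of CPM in the top against the lowest Apoe bin in unshared microglia, as a histogram over genes at 5 CPM or more (upper axis: number of genes) and for 9 members with exact 95% intervals (lower); dashed lines mark 1.5-fold. Ldha, Gapdh and Pkm lie beyond the right line, and Slc2a1 and Bnip3 lie near 0.

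Cells of the microglia gate were also grouped by detected genes of 5 states, a grouping that was added after the data were seen and in which a cell can be in several states. The cells with at least 3 of Lpl, Fam20c, Mmp12, Spp1, Plk2 and Csf1 had the highest enzyme levels. There were 762 such cells (282 unshared), and their summed enzymes were at 2003 CPM (1943 to 2064), against 926 CPM in the 25708 cells with no state, a ratio of 2.16 (2.10 to 2.23), or 2.24 (2.15 to 2.33) in unshared cells. Their suffixes ran from 1733 to 2274 CPM with a median of 1989 CPM, and those of the cells with no state from 877 to 1018 CPM, with no overlap. All 6 enzymes took part: Pkm was at 525 against 222 CPM, a ratio of 2.36 (2.22 to 2.51). Ldha was at 322 against 141 CPM, a ratio of 2.29 (2.11 to 2.48). Aldoa was at 407 against 213 CPM, a ratio of 1.91 (1.78 to 2.05).

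The same cells had Slc2a1 at 56.3 against 32.7 CPM, a ratio of 1.72 (1.42 to 2.07) and higher in 6 of 6 suffixes, and Hif1a at 124 against 68.6 CPM, a ratio of 1.81 (1.59 to 2.05). Bnip3 did not differ beyond counting error, at 24.4 against 28.0 CPM, a ratio of 0.872 (0.648 to 1.15). Counted over the 9 members, 8 were higher and none lower, against 9.21% and 11.7% of all genes, and in unshared cells again 8 and none, against 12.1% and 14.8%. These cells were deeper than those with no state, at a median of 2365 against 1735 UMIs, and among cells of 3500 UMIs and over the enzyme ratio was 1.97 (1.88 to 2.05). Their 6 microglial markers summed to 6845 CPM, against 14735 CPM in the cells with no state. The study listed Spp1 and Fam20c among the top genes of a cluster of bone marrow-derived macrophages. It also listed Spp1, Fam20c and Lpl among those of microglial clusters. The share of recruited macrophages among the cells of this state was not tested.

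The other states had smaller differences from the cells with no state. In the 466 cells with replication genes (at least 3 of Mcm5, Mcm2, Hells, Mcm3, Mcm6 and Rrm2) the enzyme sum was 1.60 times as high (1.54 to 1.66). These cells had a median of 4095.5 UMIs against 1735 in the cells with no state, and the ratio was 1.05 (0.674 to 1.57) among cells under 2000 UMIs, 1.44 (1.30 to 1.59) at 2000 to 3500 UMIs and 1.57 (1.5 to 1.64) over 3500 UMIs. As in cycling microglia, Gapdh was higher there (2.05 times) and Aldoa was not, at 0.893 (0.803 to 0.990) in all and 0.981 (0.880 to 1.09) in unshared cells. In the 703 cells with interferon-induced genes (at least 3 of Ifit3, Isg15, Ifit2, Usp18, Irf7 and Rtp4) Ldha was 1.82 times and Gapdh 1.57 times as high, while Aldoa was at 0.953 times, and these cells had a median of 3750 UMIs. Their 6 microglial markers summed to 8807 CPM, against 14735 CPM in the cells with no state. Their 6 monocyte markers summed to 210 CPM, against 28.8 CPM. The study listed these interferon-induced genes among the top genes of a cluster of bone marrow-derived macrophages. The share of recruited macrophages in this interferon group was not tested. The 9169 cells with at least 2 of Ccl2, Ccl12 and Ccl7 had an enzyme ratio of 1.14 (1.12 to 1.16), and the 3425 cells with Ccl3, Ccl4 and Il1b one of 1.21 (1.19 to 1.23). Their median depths were 3451 and 3543 UMIs, and among cells under 2000 UMIs their ratios were 1.02 and 1.05. Over the suffixes, at all depths, the first ratio ran from 0.985 to 1.35 and was above 1 in 4 of 6. The second ran from 0.976 to 1.39 and was above 1 in 5 of 6. In unshared cells both were above 1 in 6 of 6. In shared cells they were 0.994 (0.949 to 1.04) and 1.04 (0.982 to 1.09), each above 1 in 3 of 6. In the Ccl2, Ccl12 and Ccl7 group Aldoa was at 194 against 213 CPM, a ratio of 0.914 (0.887 to 0.943), and at 0.996 (0.963 to 1.03) in unshared cells. Members at least 1.5-fold higher numbered 5 of 9 for replication (14.1% of genes), 2 for interferon (7.63%), and none for the 2 chemokine groups (3.08% and 4.50%), with the same counts in unshared cells (15.0%, 8.90%, 3.54% and 5.15%). None was lower in these 4 states, against 7.87%, 9.43%, 1.01% and 2.63% of genes, or 7.19%, 9.70%, 0.645% and 2.93% in unshared cells.

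**Figure D4:**
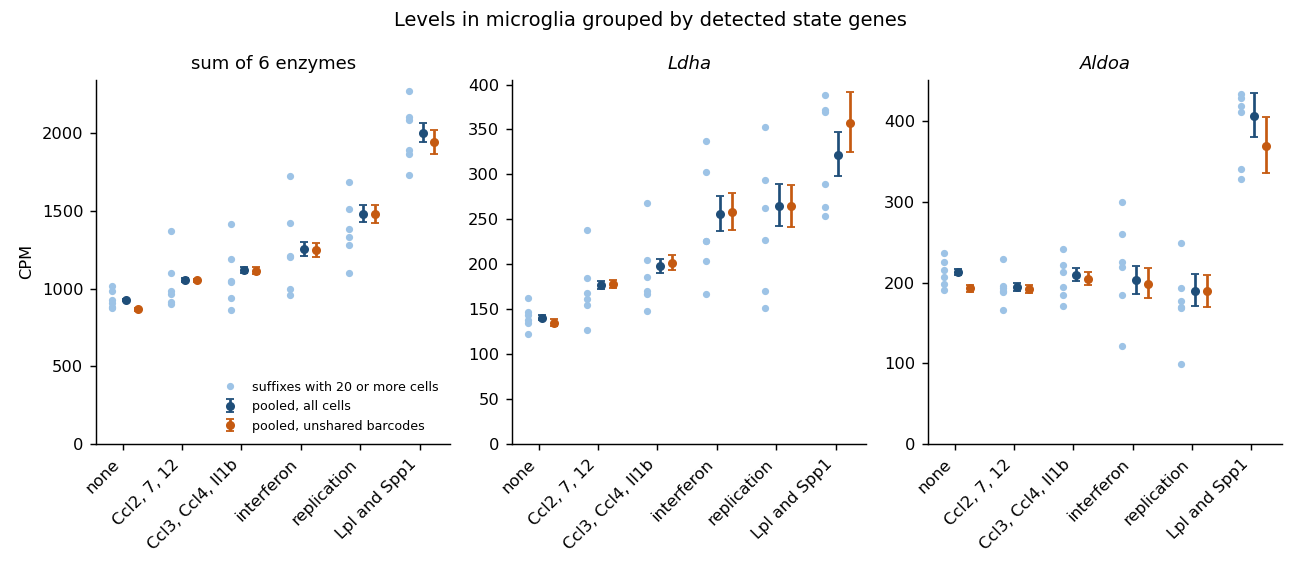
CPM of the summed enzymes, Ldha and Aldoa (axes from 0) in microglia grouped by detected state genes; pale points are suffixes with at least 20 cells and darker points pooled cells with exact 95% intervals. The Lpl and Spp1 group lies at 2003 CPM for the enzyme sum, above the other 5 groups, and is the only group shown in which Aldoa, at 407 CPM, lies clear above the cells with no state.

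Other genes of the same pathways were followed across the Apoe bins in 4 lists. Of 26 other glycolysis genes, 20 reached 5 CPM, and in the top bin 2 were at least 1.5-fold higher, 5 lower and 13 between, with a median ratio of 0.964 (in unshared cells 1 higher, 3 lower, median 0.899). The lower ones included the fructose transporter gene Slc2a5, at 44.2 CPM in the lowest and 20.5 CPM in the top bin (0.465, interval 0.404 to 0.532). The enolase gene Eno3 went from 32.3 to 12.2 CPM (0.379, 0.317 to 0.450), and the hexokinase gene Hk3 from 26.9 to 14.0 CPM (0.519, 0.437 to 0.614). Hk1 (0.622) and Pdk1, a kinase that holds back pyruvate dehydrogenase (0.644), were lower too. All 5 were lower in 6 of 6 suffixes. In unshared cells Slc2a5 (0.282), Eno3 (0.305) and Hk1 (0.610) stayed past 1.5-fold, and Hk3 (0.803) and Pdk1 (0.675) did not. The higher ones were the glucose transporter gene Slc2a3, at 2.96 and 8.73 CPM (2.95, 2.12 to 4.13), and the glycerophosphate dehydrogenase gene Gpd2 (1.67, 1.28 to 2.20), higher in 6 of 6 suffixes. In unshared cells Slc2a3 was at 1.79 and higher in only 3 of 6 suffixes, and Gpd2 was at 1.27 (0.852 to 1.86).

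Of 27 other hypoxia-inducible genes, 15 reached 5 CPM, and 7 were higher and 1 lower, with a median ratio of 1.43 (in unshared cells 5 higher, none lower, median 1.02). Ddit4, an inhibitor of mTOR signalling, went from 17.1 to 222 CPM, a ratio of 13 (11.6 to 14.7), but in unshared cells the ratio was 0.928 (0.630 to 1.34), so its whole difference lay in the shared barcodes. Plin2, a coat protein gene of lipid droplets, went from 64.5 to 245 CPM, a ratio of 3.80 (3.56 to 4.06), and was at 3.64 (3.36 to 3.94) in unshared cells, higher in 6 of 6 suffixes in both. Hilpda, another lipid droplet gene, was 1.98 times as high (1.63 to 2.42), and 1.22 times (0.904 to 1.62) in unshared cells. The heme oxygenase gene Hmox1 was 1.83 times as high (1.69 to 1.98), and 1.61 times in unshared cells. Ero1l was 1.51 times as high (1.24 to 1.85), and 1.59 times in unshared cells, there in 4 of 6 suffixes. Bhlhe40, named after its values were seen, went from 3.45 to 7.78 CPM (2.26, 1.64 to 3.13), higher in 5 of 6 suffixes, and was at 1.79 in unshared cells. Cited2, whose product competes with the hypoxia factor for its coactivator, was lower, from 280 to 169 CPM (0.606, 0.577 to 0.637), and stood at 0.806 in unshared cells. Mif passed 1.5-fold in unshared cells only, at 1.52 (1.40 to 1.66).

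Among 6 regulators of the factor, 4 reached 5 CPM, and Vhl, part of the ligase that marks the alpha subunit for breakdown, was lower at 44.7 and 29.7 CPM (0.666, 0.590 to 0.750), with 0.649 in unshared cells. Of 7 VEGF ligand and receptor genes 3 reached 5 CPM and 2 were higher, the coreceptor genes Nrp1, at 13.8 and 80.4 CPM (5.81, 5.07 to 6.68), and Nrp2, at 5.38 and 14.1 CPM (2.62, 2.05 to 3.37). In unshared cells they were at 8.11 and 2.82, and both were higher in 6 of 6 suffixes. The lists were read beside the 7.11% of all genes that were higher and the 9.87% that were lower in all cells.

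The genes whose level ran most like that of a member were ranked over 30 points, the 5 bins in each of the 6 suffixes, with each suffix centred on its own mean. The points share libraries and the order of the bins, so the coefficients only describe these points. For the enzyme sum the closest gene was Rpl9 in all cells (r = 0.986) and Gapdh, itself part of the sum, in unshared cells (r = 0.974). For Pkm the closest were ribosomal protein genes, Rpl32 in all cells (r = 0.981) and Rpl21 in unshared cells (r = 0.977). The complement gene C1qc stood among the 5 closest to Pkm in both sets (r = 0.981 and 0.974). For Ldha the closest in unshared cells was Spp1 (r = 0.922), and for Hif1a it was Tor3a in both (r = 0.899 and 0.804). For Slc2a1 the closest was Arid4b in all cells (r = 0.762) and Bcas2 in unshared cells (r = 0.725), and for Bnip3 it was Tvp23b (r = 0.787) and Zfp36l1 (r = 0.859).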

How the data were processed

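CD45+ cells from 6 mice were profiled with the Chromium 3′ v2 kit. The submitters' processing notes name Cell Ranger 3.1, Seurat 3.1.5 and the mm10 build, and the deposited matrix holds raw UMI counts per gene and barcode, with the libraries aggregated by the authors. Reads of human RNA were not analysed here. Barcodes were kept by the study's stated limits. No doublet caller was run; barcodes in 2 gates (41) were left out and 403 stayed ungated. UMIs were summed per group of cells with Python 3.11.15, numpy 2.4.6 and scipy 1.17.1 and given as CPM with exact Poisson intervals and exact conditional intervals of ratios at 95%. The scripts were tested on simulated data. With 1 pooled sample no test was run.

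The features with the symbol Aldoa are 2, one of them with 1 UMI in all, and were summed. Copies or relatives of Gapdh and Aldoa (Gm3839, Gm10358, Gapdhs, Aldoart1, Aldoart2) held at most 4 UMIs each. Reads that match Gapdh or Aldoa and a copy equally may be missing from both. Symbols, coordinates and promoters follow the reference tables for GRCm38, the assembly behind mm10.

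The members, lists and gates were chosen with earlier results of these data known. All members are given; other list genes are named at 5 CPM or more, 1.5-fold or more between the outer Apoe bins, and the same direction in every suffix with at least 20 cells in both bins, in all or in unshared cells. Values of these genes in the other set were added for comparison. Alternatives covered the filters, depth, denominators, gates, bins and suffixes. A gene counted in the list of other hypoxia-inducible genes is not reported here by name.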

Additional observations from a re-analysis of the deposited data

Results flagged for a closer look

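Of 60 sets of 6 suffix values (the microglia gate and its outer Apoe bins, for 9 members and the enzyme sum, in all and in unshared cells), 7 held a suffix far from the other 5, where chance gives about 1 in 20, and the sets are not independent. In the lowest Apoe bin Aldoa was at 157 CPM in suffix 6, against 174 to 183 CPM in the others, and at 158 CPM in unshared cells. There the enzyme sum was at 968 CPM in suffix 4, against 779 to 838 CPM, and at 970 CPM (969.6) in unshared cells. In the top bin Bnip3 was at 6.65 CPM in suffix 3 on 3 UMIs, against 25.5 to 36.4 CPM. Hif1a was at 111 CPM (110.9) in the same suffix on 50 UMIs, against 76.6 to 87.0 CPM, and at 116 CPM in unshared cells on 23 UMIs, against 61.6 to 80.8 CPM.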

How the results depend on the processing

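The 180 alternative values of the enzyme ratios all kept the direction of the reported value, but many left its narrow counting interval. For the states, shared barcodes were not among these alternatives. In shared barcodes the Ccl2, Ccl12 and Ccl7 ratio was 0.994 (0.949 to 1.04), and the other state ratios were above 1. Counts of members or list genes under an alternative stand here without the share of all genes. They are not read as results about these genes. No upper limit on genes gave 2.94 for monocyte-like and 3.45 for choroid plexus-like cells against microglia, and 1 of 9 members past 1.5-fold between the outer Apoe bins. Thinning to 1000 UMIs gave 3.14 for monocyte, 1.75 for NK, 2.02 for cycling, 1.98 for Spp1 and 2.85 for granulocyte gates, and 1.56 for the Apoe bins. The median over suffixes gave 2.99 for monocyte and 1.39 for NK gates. CPM without mitochondrial and ribosomal protein genes gave 3.72 for monocyte, 1.62 for NK and 2.93 for dendritic gates and 1.53 for the bins. Asking for 2 of 6 markers gave 2.64 for monocyte, 2.98 for choroid plexus and 1.70 for granulocyte gates, and 4 of 6 gave 3.89 and 2.64 for the last 2. Without cells over 3% microglial RNA the ratios were 3.44 for monocyte, 1.84 for NK (5 members past 1.5-fold), 4.87 for choroid plexus and 3.87 for granulocyte gates. A mitochondrial limit of 10% gave 3.48 for choroid plexus.

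Between the Apoe bins, CPM without Apoe gave 1.59 and 4 members past 1.5-fold, and 4 of 6 microglial markers gave 1 member. Cells with no UMI of the immediate early genes gave 2.29 (1.11 to 5.47) and 5 members, but only 7 and 49 cells were left. Unshared barcodes, depth strata and the states were added after seeing the data. Unshared barcodes gave 3.85 for choroid plexus and 2.71 for Spp1 gates, 4 list genes lower in place of 7, and state ratios of 2.24 (Lpl and Spp1), 1.71 (replication), 1.44 (interferon), 1.21 (Ccl2, Ccl12 and Ccl7) and 1.29 (Ccl3, Ccl4 and Il1b). In the same order, cells under 2000 UMIs gave state ratios of 2.24, 1.05, 1.25, 1.02 and 1.05 and 4 members between bins, and cells of 2000 to 3500 UMIs gave 2.29, 1.44, 1.24, 1.09 and 1.16, with 1.59 and 4 members between bins. Cells over 3500 UMIs gave 1.97 for the Lpl and Spp1 state, and 1.31 and 0 members between bins. For the 4 lists together, 2-fold gave 7 higher and 2 lower in place of 11 and 7, and no minimum level gave 21 higher. Vegfa between bins had a ratio of 0 at 2000 to 3500 UMIs, where the outer bins hold too few UMIs to compare.

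Leaving out each suffix gave 3.16 to 3.56 for monocyte, 3.11 to 3.86 for choroid plexus, 1.92 to 2.38 for granulocyte, 2.26 to 2.75 for dendritic, 1.48 to 1.55 for NK and 1.48 to 1.52 for the Apoe bins, with 1 to 2 members between bins and 2 to 4 in NK-like cells. The state ratios ranged from 1.51 to 1.63 (replication), 1.25 to 1.52 (interferon), 1.08 to 1.18 (Ccl2, Ccl12 and Ccl7) and 1.15 to 1.26 (Ccl3, Ccl4 and Il1b). The cause of these changes was not tested. Of 682 alternative values for single members, 576 stayed within the counting interval. Bnip3 and Slc2a1 in the small gates rest on 4 to 59 UMIs, and counting error limits them. No paired analysis was possible because the labels tie the suffixes to no sample.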
